A study of Homo sapiens with 6 samples.

Results

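SYP, the chromogranins and secretogranins, and their partners form a set of 10 neuroendocrine genes measured here in HCT116, an established human colorectal cancer cell line. The set was chosen by gene symbol (SYP, CHGA, CHGB, SCG2, SCG3, SCG5, INSM1, NEUROD1, PCSK1 and ENO2) with the FPKM values of the same 6 libraries already known. Differences between the groups in these genes are therefore given as descriptions. All 10 symbols matched 1 row each among 20474 annotated genes. The siPOU2F1 cells received an siRNA against POU2F1, and the sicontrol cells received a control siRNA and are labelled WT. RNA was collected 48 h after transfection of this parental line, polyA libraries were made with a directional kit, and each group held 3 libraries. The sources used here do not give the siRNA sequences. Whether each library had its own culture is not stated, so errors and p-values describe the spread among the libraries, part or all of which may be technical.

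Neuroendocrine cells, among them the hormone-producing cells of the gut epithelium, store peptide hormones in dense-core granules and hold smaller synaptic-like vesicles. The chromogranins and secretogranins are acidic proteins that pack the granules, and convertases such as PCSK1 cut prohormones inside them. SYP, a membrane protein of the small vesicles, and CHGA are the usual tissue stains for neuroendocrine cells and tumours. INSM1 and NEUROD1 are transcription factors of neuroendocrine differentiation, and the repressor REST holds many neuronal genes silent in other epithelia. POU2F1 encodes OCT1, a widely expressed factor that binds the octamer DNA motif.

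The 6 libraries had FPKM sums of 394689 to 408637 and between 11670 and 11853 annotated genes at 1 FPKM or more (fragments per kilobase, normalised by the authors for transcript length and for library size). The files hold no counts, so depth is unknown. POU2F1, the targeted gene, measured 1.87, 1.69 and 1.73 FPKM in siPOU2F1 cells, against 4.16, 3.60 and 4.26 FPKM in sicontrol cells. Its mean was 1.76 ± 0.0984 FPKM in siPOU2F1 cells and 4.01 ± 0.359 FPKM in sicontrol cells (SD, n = 3 each). The log2 fold change was -0.99 ± 0.14 (SE; limma, adjusted p = 0.0333; exact two-sided permutation p = 0.1, the smallest that 3 libraries against 3 allow). Without siPOU2F1 replicate 3 it was -0.98 (limma, adjusted p = 0.00982), and with any other library removed it lay between -1.06 and -0.95 and was not called (limma, adjusted p = 0.114 to 0.22). That replicate stood apart from the others of its group. Across the 11831 genes that averaged 1 FPKM or more it correlated at r = 0.946 and 0.948 with siPOU2F1 replicates 1 and 2. With sicontrol replicates 1, 2 and 3 it correlated more highly, at r = 0.969, 0.977 and 0.966. Values without it are given for the tested members and for the genes whose call depends on it. Leaving it out raised the calls over all tested genes from 147 to 2954, and no other single removal raised them. Among 10 colorectal epithelial markers 7 averaged 1 FPKM or more, led by KRT18, KRT8 and KRT19. The summed level of the 10 ran from 3740.1 to 5166 FPKM in siPOU2F1 cells and from 2705 to 3628 FPKM in sicontrol cells. These 3 keratins made up most of it. All 7 tested markers had a positive log2 fold change (median 0.20) and 0 were called. KRT18 was the 1 tested marker higher without overlap between the groups, while KRT8 and KRT19 overlapped. Of 6 immune, 6 fibroblast, 4 endothelial and 5 goblet cell markers, CD68 and COL1A1 alone averaged 1 FPKM or more (5.48 and 2.55 FPKM). PTPRC, COL3A1, DCN, ATOH1 and SPDEF were at 0 in every library, while LYZ averaged 0.922 FPKM and VWF 0.595 FPKM. CD68 shares 95.3% of its exonic bases with AC016876.2 on the same strand, a gene not used here. The part of the higher, mostly keratin, marker sum in the values below was not tested.

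The members ranged from silent to abundant in these cells. FPKM is scaled to transcript length, so levels can be set beside each other across genes. ENO2 averaged 74.9 FPKM over the 6 libraries, above 95.7% of annotated genes. SYP came next at 3.52 FPKM and then CHGB at 1.92 FPKM, both near the middle of all annotated genes (52.9% and 46.9% of genes lay lower). SCG3 averaged 0.593 FPKM and CHGA 0.152 FPKM. PCSK1 averaged 0.0554 FPKM, SCG2 0.0388 FPKM, INSM1 0.0101 FPKM and SCG5 0.00522 FPKM, and NEUROD1 was at 0 in all 6 libraries. The ranges over all 6 libraries of ENO2 and SYP did not meet, nor did those of SCG3 and CHGB or of SCG3 and CHGA, whereas SYP and CHGB overlapped. From PCSK1 down, each range met that of the next gene in the order. In all, 7 of the 10 members averaged under 1 FPKM, as did 8643 of the 20474 annotated genes. The comparison across all genes took only those at a mean of 1 FPKM or more, so CHGB lay just inside that limit and SCG3 just outside it.

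**Figure D1:**
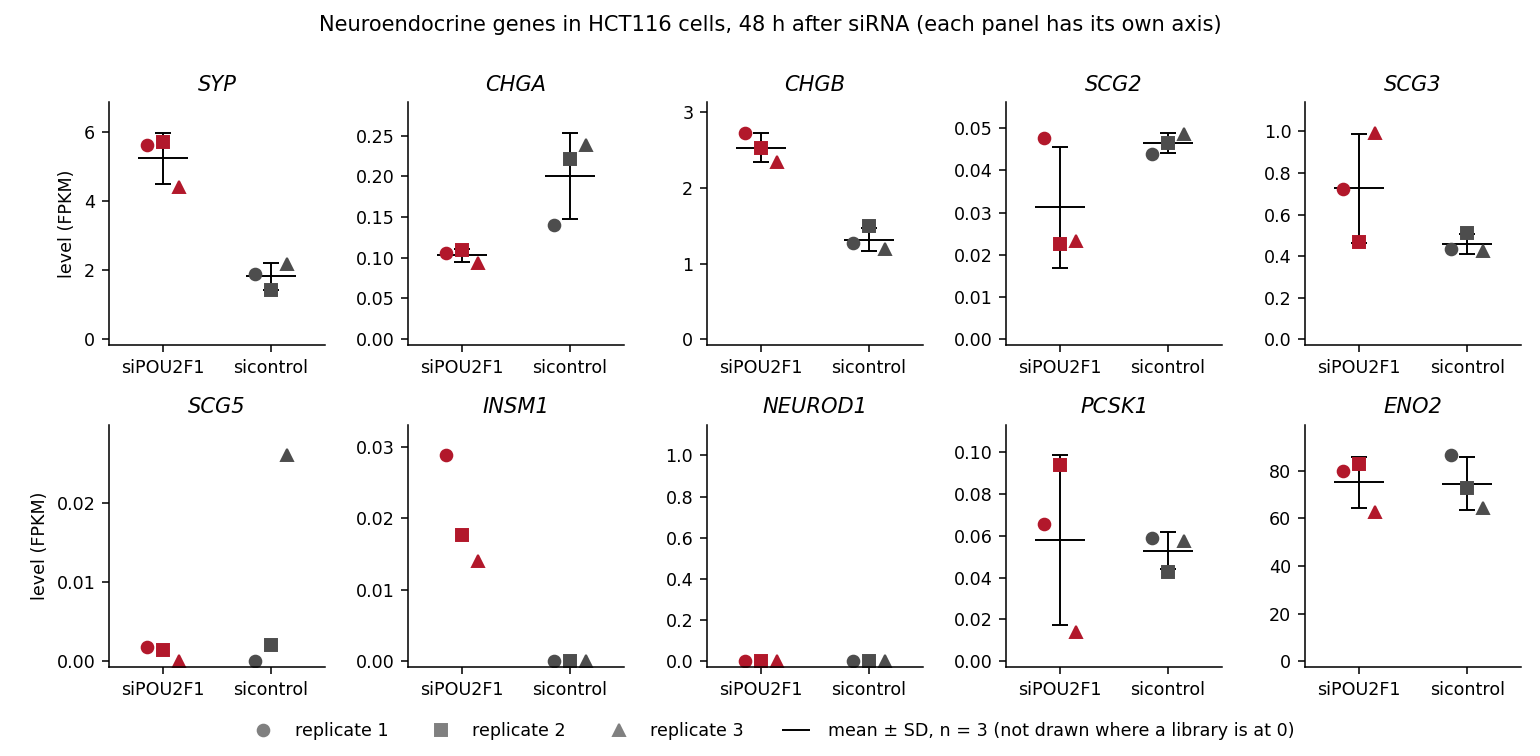
Level in FPKM of each of the 10 members in the 3 siPOU2F1 libraries (red, left) and the 3 sicontrol libraries (grey, right), with symbols for replicates and bars for the mean ± SD where no library is at 0; each panel has its own linear axis from 0. SYP lay between 4.39 and 5.69 FPKM in siPOU2F1 cells and between 1.41 and 2.18 FPKM in sicontrol cells, while the ENO2 values of the groups overlapped.

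SYP (ENSG00000102003; chromosome X, 49187804 to 49200259, minus strand, GRCh38) was higher in siPOU2F1 cells. SYP encodes synaptophysin, which spans the membrane of small vesicles and binds the SNARE protein VAMP2. It measured 5.60, 5.69 and 4.39 FPKM in siPOU2F1 replicates 1 to 3, against 1.88, 1.41 and 2.18 FPKM in sicontrol replicates 1 to 3. Every siPOU2F1 library lay above every sicontrol library, and siPOU2F1 replicate 3 was the lowest of its group. The mean was 5.22 ± 0.728 FPKM in siPOU2F1 cells and 1.82 ± 0.387 FPKM in sicontrol cells (SD, n = 3 each), a ratio of 2.87. Taken as log2(FPKM + 0.5), which makes differences of low genes look smaller than they are, the difference was 1.31 with an SE of 0.19. Relative to the sicontrol mean on that scale, siPOU2F1 replicates 1 to 3 stood at 1.41, 1.43 and 1.09 and the sicontrol libraries at 0.05, -0.27 and 0.22. The difference was 1.42 without siPOU2F1 replicate 3 and lay between 1.17 and 1.42 whichever library was left out. In bulk RNA more cells with SYP and more SYP RNA per cell cannot be told apart.

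SYP shares 66 of its exonic bases (1.9%) with SYP-AS1 on the opposite strand, a gene not used here, and whether the counting used strand is not stated in these sources. The RefSeq window around the SYP start, chrX:49200144-49200443 on the minus strand of GRCh38.p14, is shown because SYP had the largest log2 difference of the 3 tested members, with GC boxes (GGGCGG or its complement) in capitals.
SYP promoter: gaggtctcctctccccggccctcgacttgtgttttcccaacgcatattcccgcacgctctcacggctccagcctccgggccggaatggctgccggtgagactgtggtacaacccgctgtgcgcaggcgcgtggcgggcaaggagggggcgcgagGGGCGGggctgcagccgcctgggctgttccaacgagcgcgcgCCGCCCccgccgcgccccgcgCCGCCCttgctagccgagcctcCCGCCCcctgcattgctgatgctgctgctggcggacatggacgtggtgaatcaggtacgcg
The window held 4 GC boxes, and 9.06% of the 35116 promoter windows in the table held 4 or more. Its GC content was 71.3% and it held 35 CG pairs, against medians of 58.7% and 14 over all windows.

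CHGB (ENSG00000089199; chromosome 20, 5911430 to 5925361, plus strand), which encodes chromogranin B, was likewise higher in each siPOU2F1 library. CHGB values were 2.72, 2.52 and 2.34 FPKM in siPOU2F1 replicates 1 to 3, against 1.27, 1.49 and 1.19 FPKM in sicontrol replicates 1 to 3. The groups did not overlap, and the lowest siPOU2F1 value stood well above the highest sicontrol value. The mean was 2.53 ± 0.192 FPKM in siPOU2F1 cells and 1.32 ± 0.156 FPKM in sicontrol cells (SD, n = 3 each), a ratio of 1.92 and a log2 difference of 0.74 with an SE of 0.16. It was 0.78 without siPOU2F1 replicate 3.

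CHGA (ENSG00000100604; chromosome 14, 92923080 to 92935293, plus strand), the chromogranin stained in clinical practice, ran the other way at a far lower level. It measured 0.106, 0.109 and 0.0941 FPKM in siPOU2F1 cells, against 0.140, 0.221 and 0.239 FPKM in sicontrol cells. Each siPOU2F1 value was below each sicontrol value, and the siPOU2F1 mean was 51.5% of the sicontrol mean, but a gene this low was below the limit for testing. The CHGB level was 25.7, 23.1 and 24.8 times the CHGA level within siPOU2F1 replicates 1 to 3 and 9.06, 6.74 and 4.98 times it within sicontrol replicates 1 to 3. At an unknown depth the CHGA values may rest on few fragments, so its direction and these ratios are uncertain.

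The CHGA promoter is set beside that of SYP because the pair differed in the opposite direction, CHGA at a level too low to be tested. Its RefSeq window is chr14:92922900-92923199 on the plus strand, and capitals mark the palindrome TGACGTCA, known as the cAMP response element.
CHGA promoter: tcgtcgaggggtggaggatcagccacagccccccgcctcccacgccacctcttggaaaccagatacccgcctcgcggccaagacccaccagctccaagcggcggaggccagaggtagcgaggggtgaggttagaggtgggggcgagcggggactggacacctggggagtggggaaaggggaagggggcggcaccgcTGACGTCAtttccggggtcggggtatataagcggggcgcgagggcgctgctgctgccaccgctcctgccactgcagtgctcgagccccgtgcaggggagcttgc
That element occurred in 1.85% of all windows with 1 copy in the upstream one of the PCSK1 windows and 0 copies in the SYP window. Both words in capitals were chosen after the sequences had been read. The octamer ATGCAAAT, searched on both strands, was in 0 of the 8 windows of the 7 members with an entry (SYP, CHGA, SCG3, SCG5, NEUROD1, PCSK1 and ENO2), as in all but 1.77% of the 35116 windows. The 19 fixed letters of the RE1 motif, which REST binds, matched none of these 8 windows with at most 4 mismatches, the closest having 7, and 0.308% of all windows reached that limit. These letters are described only for the windows searched.

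The remaining granins were low in both groups. SCG3, which carries CHGA to the granule membrane, measured 0.725, 0.466 and 0.991 FPKM in siPOU2F1 cells, against 0.436, 0.511 and 0.427 FPKM in sicontrol cells. The groups overlapped, since siPOU2F1 replicate 2 lay within the sicontrol range, and the spread was 0.262 FPKM in siPOU2F1 cells and 0.0462 FPKM in sicontrol cells (SD, n = 3 each). SCG2, the precursor of secretoneurin, measured 0.0476, 0.0226 and 0.0234 FPKM in siPOU2F1 cells, against 0.0439, 0.0465 and 0.0487 FPKM in sicontrol cells, and siPOU2F1 replicate 1 lay among the sicontrol values. SCG5, the chaperone known as 7B2 that assists PCSK2, did not pass 0.0260 FPKM in any library and was at 0 in 1 library of each group. The summed level of CHGA, CHGB, SCG2, SCG3 and SCG5 was 3.60, 3.12 and 3.45 FPKM in siPOU2F1 cells, against 1.89, 2.27 and 1.93 FPKM in sicontrol cells. CHGB made up 75.6%, 80.8% and 67.8% of that sum in siPOU2F1 replicates 1 to 3 and 67.2%, 65.6% and 61.7% in sicontrol replicates 1 to 3, so the sum mostly restates CHGB.

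The transcription factors and the convertase were near 0. INSM1 (chromosome 20, 20368121 to 20370949, plus strand), a zinc finger repressor, was listed at 0.0288, 0.0177 and 0.0140 FPKM in siPOU2F1 cells and at 0 in all 3 sicontrol libraries. No fold is given against a group listed at 0, and at an unknown depth values this small cannot be told from a few fragments. NEUROD1, a basic helix-loop-helix factor, was at 0 in every library of both groups, as were 3109 annotated genes. PCSK1, the prohormone convertase, measured 0.0658, 0.0938 and 0.0142 FPKM in siPOU2F1 cells, against 0.0587, 0.0425 and 0.0575 FPKM in sicontrol cells, and the highest and the lowest of the 6 values were both in siPOU2F1 cells.

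ENO2 (ENSG00000111674; chromosome 12, 6913745 to 6923698, plus strand), the enolase of glycolysis known as neuron-specific enolase, was abundant in both groups. It measured 79.8, 82.8 and 62.9 FPKM in siPOU2F1 cells, against 86.5, 72.9 and 64.4 FPKM in sicontrol cells. The ranges nearly coincided. The mean was 75.2 ± 10.8 FPKM in siPOU2F1 cells and 74.6 ± 11.1 FPKM in sicontrol cells (SD, n = 3 each), a log2 difference of 0.01 with an SE of 0.15 that was 0.13 without siPOU2F1 replicate 3 and -0.01 when each library was rescaled to a common sum. Its level was 14.2, 14.6 and 14.3 times that of SYP within siPOU2F1 replicates 1 to 3 and 45.9, 51.7 and 29.6 times within sicontrol replicates 1 to 3.

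Across the whole transcriptome, 47 genes passed the threshold as higher (0.397% of 11831; limma, Benjamini-Hochberg adjusted p under 0.05) and 100 as lower (0.845%). Of the 3 tested members SYP was counted among the higher genes and 0 among the lower. These calls depended on the libraries: without siPOU2F1 replicate 3 the counts were 1099 and 1855, and without any other single library at most 4 genes were called higher and 5 lower. No gene was called higher without siPOU2F1 replicate 1, without siPOU2F1 replicate 2 or without sicontrol replicate 1, so SYP was not called there. In those limma fits an unadjusted p under 0.05 was found for 1255, 1176 and 1333 genes. SYP and CHGB were higher without overlap between the groups, as were 11.3% of tested genes. Of all 10 members SYP, CHGB and INSM1 were higher without overlap, CHGA was lower without overlap and 6 overlapped or were at 0. Among the 17365 annotated genes above 0 in at least 1 library, 8.97% were higher and 10.3% lower without overlap. Nothing is read from these member counts, because the members were chosen with this comparison known. Without ENO2, the other 9 members summed to 9.30, 8.92 and 7.86 FPKM in siPOU2F1 cells, against 3.83, 3.72 and 4.16 FPKM in sicontrol cells, and SYP made up 60.2%, 63.7% and 55.8% of that sum in siPOU2F1 cells and 49.2%, 37.8% and 52.2% in sicontrol cells.

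The tested members differed from each other in their profile over the libraries. Likeness was measured as the root mean square difference between log2(FPKM + 0.5) profiles over the 6 libraries, each centred on its own mean. Profiles were not scaled, so the size of the difference between the groups enters the measure. Closeness therefore partly restates a similar log2 fold change in the same comparison. The genes closest to SYP were ZNF267, a zinc finger gene, at 0.113, MTM1, a phosphoinositide phosphatase, at 0.152, and PODXL2, a sialomucin of the cell surface, at 0.153. ZNF267 averaged 11.4 ± 1.88 FPKM in siPOU2F1 cells and 3.86 ± 0.430 FPKM in sicontrol cells (SD, n = 3 each). CHGB stood at 0.362 from SYP, rank 200 among tested genes, and ENO2 at 0.681, rank 5180. Ranked from CHGB, SYP was 3347 at the same 0.362 and ENO2 was 4529 at 0.396. The genes closest to CHGB were PPT1, a lysosomal thioesterase, at 0.073, TUFT1 at 0.081 and VPS26C, a subunit of the endosomal retriever complex, at 0.085. PPT1 averaged 39.1 ± 1.84 FPKM in siPOU2F1 cells and 24.3 ± 1.52 FPKM in sicontrol cells (SD, n = 3 each). Closest to ENO2 were BRWD3 at 0.034, and WASF2, an actin regulator, and FOXJ2, a forkhead factor, both at 0.059.

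**Figure D2:**
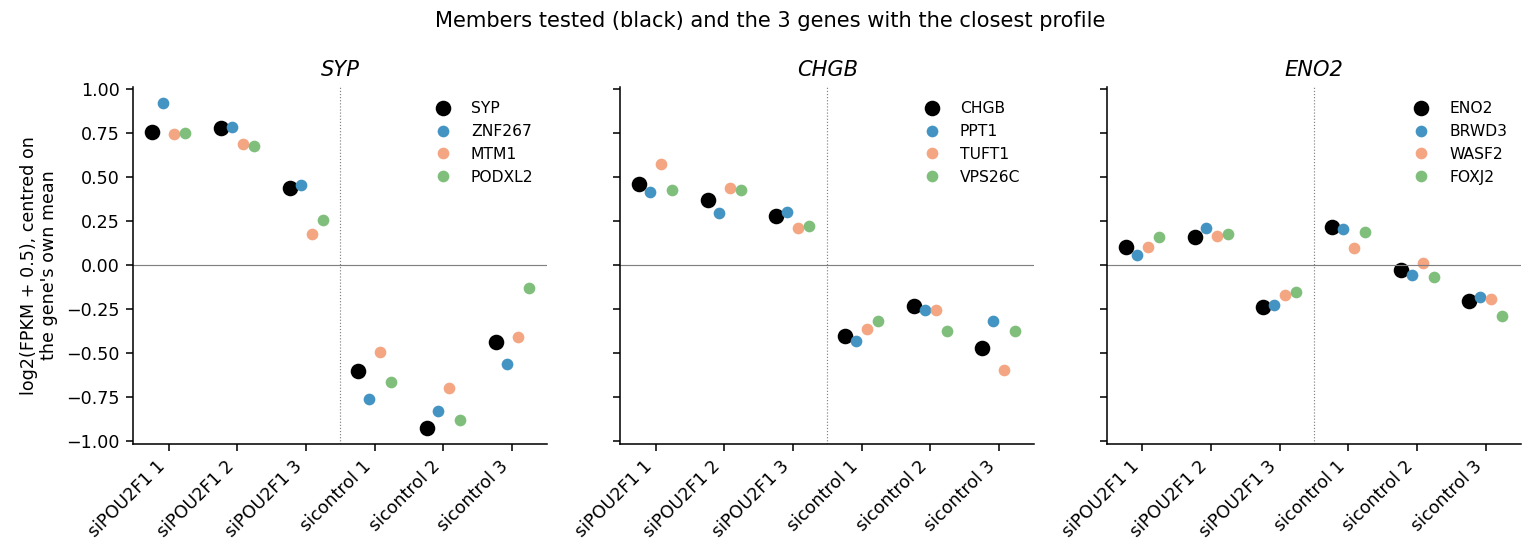
Centred log2(FPKM + 0.5) of SYP, CHGB and ENO2 (black) and of the 3 genes with the closest profile to each (colours) in the siPOU2F1 libraries, left of the dotted line, and the sicontrol libraries, right of it. SYP and CHGB were above their own mean in all siPOU2F1 libraries, and ENO2 was lowest in replicate 3 of each group.

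The genes that surround these members in neuroendocrine biology were followed as 10 lists with 196 genes outside the set, of which 105 were tested. Of these 105, HDAC1 rose and UNC13B fell, and no other was called (limma, adjusted p under 0.05; 0.397% and 0.845% of all tested genes were called higher and lower). An unadjusted p under 0.05 was found for 24 of the 105 (22.9%), against 18.1% of all tested genes. The median log2 fold change of all tested genes was -0.013.

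The list of granin and granule genes outside the set held cargo such as VGF and docking factors such as SYTL4. Of its 16 genes 10 were tested and none was called. The log2 fold change was positive for 5 and negative for 5, with a median of -0.01 that does not describe cargo alone. VGF, a granin-like precursor of neuropeptides, measured 21.4, 27.5 and 13.2 FPKM in siPOU2F1 cells, against 7.70, 4.76 and 7.22 FPKM in sicontrol cells. The groups did not overlap, and siPOU2F1 replicate 3 was the lowest of its group. Its log2 fold change of 1.55 ± 0.29 (SE) missed the threshold (limma, adjusted p = 0.0614). The adjusted p was 0.0065 without siPOU2F1 replicate 3 and 0.142 to 0.247 with any other library left out (limma). It was 0.0496 where only genes averaging 5 FPKM or more were tested (limma). SYTL4, an effector of RAB27 that docks granules, measured 1.30, 1.06 and 0.528 FPKM in siPOU2F1 cells, against 4.20, 2.55 and 5.44 FPKM in sicontrol cells. Its log2 fold change was -1.63 ± 0.31 (SE; limma, adjusted p = 0.0646), or -1.39 without siPOU2F1 replicate 3 (limma, adjusted p = 0.0195). With any other library left out SYTL4 was not called (limma, adjusted p = 0.12 to 0.294). It shares 17.9% of its exonic bases with SRPX2 on the opposite strand. PCSK1N, a granin-like inhibitor of PCSK1, named although chosen after its values were seen, averaged 23.0 ± 2.29 FPKM in siPOU2F1 cells and 23.4 ± 1.99 FPKM in sicontrol cells (SD, n = 3 each; log2 fold change -0.03).

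Of 15 prohormone processing enzymes 11 were tested and 0 were called (median log2 fold change 0.19). PAM, which amidates peptide hormones, averaged 80.1 ± 8.63 FPKM in siPOU2F1 cells and 58.3 ± 3.38 FPKM in sicontrol cells (SD, n = 3 each), and a log2 fold change of 0.45 (limma, adjusted p = 0.115). PCSK5, a further convertase, had a log2 fold change of -0.37 (limma, adjusted p = 0.189). PCSK2, the client of SCG5, was above 0 in 1 of the 6 libraries, siPOU2F1 replicate 2, at 0.0212 FPKM, and was named after its value was seen.

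SYP belongs to a family of vesicle proteins with 7 other listed members, of which 4 were tested and 0 called (median log2 fold change 0.12). SYPL1, the widely expressed relative, measured 99.2, 104.9 and 118.1 FPKM in siPOU2F1 cells, against 115.8, 131.4 and 121.5 FPKM in sicontrol cells, with a log2 fold change of -0.20 (limma, adjusted p = 0.355). SYNGR2, a synaptogyrin, had 0.13 (limma, adjusted p = 0.476). Of 40 genes of synaptic vesicles and exocytosis 28 were tested, with 14 values above and 14 below 0 and a median of -0.01. UNC13B, which primes vesicles for fusion, measured 2.21, 2.01 and 2.59 FPKM in siPOU2F1 cells, against 4.37, 5.66 and 5.27 FPKM in sicontrol cells. It fell by 1.01 on the log2 scale with an SE of 0.16 (limma, adjusted p = 0.0401).

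Transcription factors of neuroendocrine and enteroendocrine cells were mostly low, with 22 of 30 under 1 FPKM on average and 5 at 0 in all libraries. NEUROG3, the factor that starts the endocrine lineage of the gut, was among those at 0 and was singled out after its values were seen. All 8 tested factors had a positive log2 fold change, from 0.08 to 0.75, and 0 were called. Their median was 0.41, against -0.013 for all tested genes. The share of positive values over all tested genes was not computed. HES1, a Notch target, was counted in this list and not among the Notch genes. MNX1, a homeobox factor of motor neurons and pancreas, averaged 8.52 ± 0.767 FPKM in siPOU2F1 cells and 5.50 ± 0.633 FPKM in sicontrol cells (SD, n = 3 each; log2 fold change 0.59; limma, adjusted p = 0.103). PROX1, a homeobox factor, had 0.68 (limma, adjusted p = 0.135). Of 21 gut hormones and neuropeptides 19 averaged under 1 FPKM and 9 were at 0 throughout. ADM, a vasodilator peptide made by many cell types, and GAST, gastrin, were tested and not called (log2 fold changes 1.49 and -0.60; limma, adjusted p = 0.148 and 0.548). Without siPOU2F1 replicate 3 ADM had 1.95 and was called (limma, adjusted p = 0.00862). With any other library left out ADM was not called (limma, adjusted p = 0.271 to 0.448). GAST had -1.18 without siPOU2F1 replicate 3 (limma, adjusted p = 0.0542). It lay between -1.18 and -0.23 with 1 library left out, the value nearest 0 being that without sicontrol replicate 2. Neuronal and surface markers had 6 tested members of 26, 5 of them positive, with a median of 0.39 and 0 called. TUBB3, a neuronal tubulin, measured 45.1, 43.7 and 43.3 FPKM in siPOU2F1 cells, against 22.6, 31.8 and 28.7 FPKM in sicontrol cells, a log2 fold change of 0.67 (limma, adjusted p = 0.0744); 48.1% of its exonic bases are shared with AC092143.1 on the same strand, listed at 0 in every library. L1CAM, a neural adhesion molecule, had 0.36 (limma, adjusted p = 0.155).

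Among REST and its corepressors 18 of 20 genes were tested, with 1 called higher, 0 called lower and a median log2 fold change of 0.12. The log2 fold change was positive for 10 of them and negative for 8, HDAC2 and RCOR1 among the latter. HDAC1, a histone deacetylase of the corepressor complexes, measured 48.3, 53.2 and 54.4 FPKM in siPOU2F1 cells, against 26.9, 31.6 and 33.1 FPKM in sicontrol cells. It rose by 0.76 on the log2 scale with an SE of 0.12 (limma, adjusted p = 0.0361). REST itself, chosen for its role after its values were seen, measured 9.26, 9.02 and 12.5 FPKM in siPOU2F1 cells, against 13.8, 14.2 and 11.1 FPKM in sicontrol cells. The groups overlapped through the replicates 3, and the log2 fold change of -0.34 was not called (limma, adjusted p = 0.33). Without siPOU2F1 replicate 3 it was -0.48 and called (limma, adjusted p = 0.0436). With any other library left out REST was not called (limma, adjusted p = 0.288 to 0.71). Of 19 Notch genes, which restrain endocrine fate in the gut, 16 were tested and 0 called (median 0.14). The receptor NOTCH2 had a log2 fold change of -0.34 and the target HEY2 had 0.63 (limma, adjusted p = 0.149 and 0.15). The enolases ENO1 and ENO3 had -0.20 and -0.40 and were not called (limma, adjusted p = 0.491 and 0.39). ENO1, the common enolase, was 18.1 to 28.7 times as high as ENO2 within siPOU2F1 libraries and 23.3 to 28.0 times within sicontrol libraries.

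The calls of HDAC1 and UNC13B depended on the libraries in the fit, while their log2 fold changes stayed between 0.67 and 0.82 for HDAC1 and between -1.11 and -0.94 for UNC13B whichever library was left out. Without siPOU2F1 replicate 3 the adjusted p was 0.0121 for HDAC1 and 0.00883 for UNC13B (limma). Removing each of the remaining 5 libraries in turn gave 0.0968 to 0.198 for HDAC1 and 0.133 to 0.201 for UNC13B, so neither was then called, nor with no filter on low genes (adjusted p = 0.0547 for HDAC1 and 0.0818 for UNC13B). Without siPOU2F1 replicate 3, 30 of the 105 tested list genes were called in place of 2. In the same fit 2954 of all 11831 tested genes were called in place of 147, so the rise was not particular to the lists. The list genes then called included PAM (log2 fold change 0.53, adjusted p = 0.0144), MNX1 (0.66, 0.0195), TUBB3 (0.68, 0.0237), NOTCH2 (-0.34, 0.045) and ENO3 (-0.62, 0.0452; limma). With any other library left out, 0 list genes were called.

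**Figure D3:**
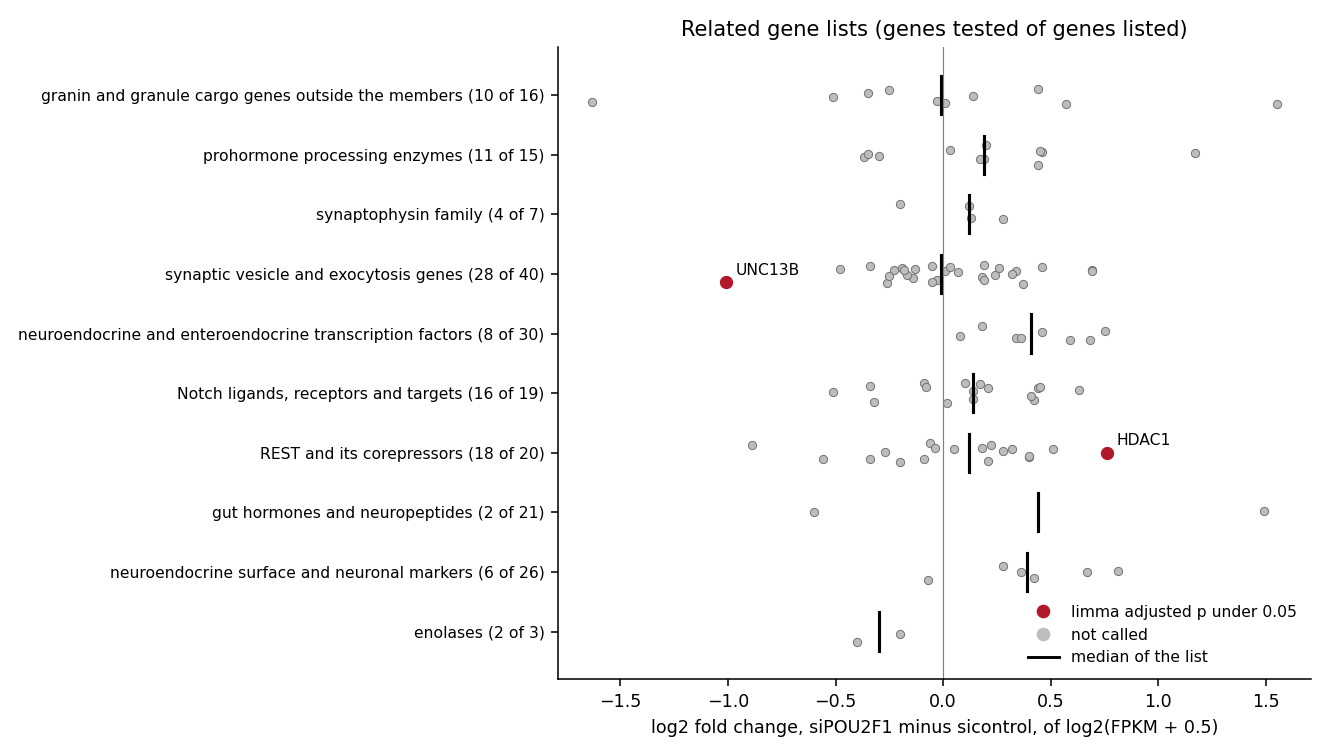
Log2 fold change, siPOU2F1 minus sicontrol, of each tested gene in the 10 related lists (points, red where called by limma at an adjusted p under 0.05) with the list median as a black bar. HDAC1 at 0.76 and UNC13B at -1.01 were the called genes. All 8 tested transcription factors lay right of 0, with 0 of them called.

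The 7-base word AACTGCA was carried in the 3′ UTR by 51 of the 99 genes called lower that could be searched (51.5%), by 0 of 47 called higher and by 12.4% of the 11520 tested genes with a 3′ UTR of 20 bases or more. A further word, AGAATGA, was present in 35.4%, 4.26% and 14.9% of the same groups. Both words were picked from the fold changes of these libraries, so their presence supports nothing about a member. SYP (3′ UTR of 1483 bases) and CHGB (312 bases) held neither word. CHGA was the single member with AACTGCA, 1 copy in its last exon (8 of 8) at chr14:92935181-92935187, shown with 10 bases on each side and the word in capitals.
CHGA 3′ UTR site: cactgggcacAACTGCAataacttctg
ENO2 held 1 copy and PCSK1 2 copies of AGAATGA, and the other members held neither word.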

How the data were processed

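For every library the authors deposited a table of FPKM values with 22782 features, 20474 of them annotated genes. StringTie 2.1.2, HISAT2 2.0.4, Bowtie2 2.2.5 and the build hg38 are listed, without roles, per the submitters' processing notes. Annotation release, filters and strand setting: not given in the sources used here. No pair of libraries held identical values. FPKM carries no counts, so depth is unknown.

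Values were used as deposited, as log2(FPKM + 0.5). The 11831 annotated genes averaging 1 FPKM or more across libraries were fitted with limma 3.58.1 under R 4.3.3, using a trended variance and no term besides group. Adjustment (Benjamini-Hochberg) ran over all of them, and an adjusted p under 0.05 made a call. A fold change is siPOU2F1 minus sicontrol. The fit was also run on simulated data with independent noise for each gene and no effect shared by a library. That run does not bear on how the calls depend on single libraries. Members and lists were chosen with earlier results of these data known, and genes and motifs outside the stated rules after their values or sequences were seen. Genes named were all members, POU2F1, called genes of each list or otherwise the 2 with the lowest p, the 3 highest cell type markers and the 3 closest profiles per tested member.

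Positions, overlaps and 3′ UTRs came from GENCODE release 29 (GRCh38, the same build as hg38; transcript with the longest coding sequence), and promoters, 250 bases before to 50 after the start, from RefSeq on GRCh38.p14. RE1 was searched as its 19 fixed letters. Alternatives were other pseudocounts, filters and scalings, library weights, a replicate block and each library left out. Scripts ran under Python 3.11.15 with pandas 2.3.3, numpy 2.4.6 and scipy 1.17.1, and matplotlib 3.10.9 drew the plots.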

Additional observations from a re-analysis of the deposited data

How the results depend on the processing

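SYP and CHGB kept their direction under every alternative that could be run on them, and the ENO2 difference lay between -0.01 and 0.03 on the log2 scale under all settings that kept the 6 libraries. SYP ranged from 1.14 to 1.48 over the pseudocounts, scalings, filters, library weights and block and from 1.17 to 1.42 with a library left out. CHGB was 0.90 with a pseudocount of 0.1 FPKM and 0.61 with 1 FPKM, and 0.69 to 0.81 with a library left out. For ENO2 that range was -0.09 to 0.13. SYP, CHGB and POU2F1 were not in the fit limited to a mean of at least 5 FPKM. The median of all tested genes was -0.013 and lay between -0.033 and 0.014 under the 3 scalings.

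The counts of calls depended on the fit, and the cause was not tested. Without a filter 24 genes were higher and 48 lower, POU2F1 had -0.99 (limma, adjusted p = 0.065) and 0 list genes were called. With library weights the counts were 2651 and 3312, with 67 list genes. Leaving out 1 library gave 0 to 1099 genes higher, 0 to 1855 lower and 0 to 30 list genes. POU2F1 lay between -1.06 and -0.95, with an adjusted p of 0.114 to 0.22 in the 5 fits that kept siPOU2F1 replicate 3. PCSK1N was 0.06 without siPOU2F1 replicate 1 and 0.03 without sicontrol replicate 2.

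With the replicate block 0 genes were called in either direction (limma; 1208 had an unadjusted p under 0.05), 0 list genes were called and POU2F1 had -0.99 (adjusted p = 0.297). The numbers did not pair the libraries: deviations from the group means correlated at 0.133, -0.545 and -0.512 for the replicates 1, 2 and 3 of each group, and siPOU2F1 replicate 3 correlated best with sicontrol replicate 2 (0.643). Values near 0 FPKM, as for INSM1, SCG5, SCG2 and PCSK1, cannot be told from a few fragments at an unknown depth. The CHGA values, at 0.0941 to 0.239 FPKM, may also rest on few fragments.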
